A study of Homo sapiens with 2 samples.

Results

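The peaks described here are the NRF1 binding sites that lie inside protein-coding genes, away from any transcription start site (TSS), and that carry the full form of the antioxidant response element (ARE), TGACTCAGC or TGAGTCAGC. They were chosen from the list of NRF1 ChIP-seq peaks by 3 conditions: a peak centre more than 2 kb from every annotated TSS, a centre inside a protein-coding gene, and the full ARE on either strand within the peak. Of 5683 deposited peaks, 1298 met all 3 conditions (22.8%, 95% Wilson interval 21.8 to 23.9%). They make up 37.3% of the 3479 peaks that hold a full ARE anywhere in the genome.

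The data come from 1 ChIP library of HCT116 cells, a human colorectal carcinoma line, that were exposed to 1 µM MG132 for 16 h before immunoprecipitation with an anti-NRF1 antibody. MG132 is a peptide aldehyde that blocks the proteasome. An input library of cells treated likewise was not analysed here, and a peak list holds no level of a marker gene against which the cell line could be checked. No library of untreated cells, of NRF1-depleted cells or of a repeat ChIP was used, so that no value below has a replicate error, no difference carries a p-value, and the intervals (95%) cover counting error only. The number of reads behind a peak is unknown.

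NRF1, the product of NFE2L1, is a transcription factor of the cap'n'collar basic leucine zipper family that is held in the membrane of the endoplasmic reticulum and reaches the nucleus when the proteasome is impaired. It binds DNA as a heterodimer with a small MAF protein. The ARE reflects this pairing: its core of 7 bases, TGACTCA or TGAGTCA, is the palindrome that AP-1 factors also bind, and the GC that follows belongs to the side bound by the MAF partner. The best known NRF1 targets, such as the proteasome genes, carry AREs close to their TSSs.

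Shown first are 9 members with scores among the 10 highest, because they give the ARE in the setting where the enrichment was strongest. Capitals mark the full ARE nearest to the peak centre, and each sequence is read 5′ to 3′ on the strand that carries the ARE, from hg19, with 15 bases on each side. The site in TBC1D16 lies in an untranslated region and is given with fewer bases.
HTRA3, ARE at chr4:8305485-8305493, plus strand: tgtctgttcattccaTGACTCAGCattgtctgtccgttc
SPTLC1, ARE at chr9:94860477-94860485, plus strand: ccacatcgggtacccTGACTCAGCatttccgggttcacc
TNFRSF1A, ARE at chr12:6445586-6445594, plus strand: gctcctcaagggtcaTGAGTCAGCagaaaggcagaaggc
MAPT, ARE at chr17:44026549-44026557, minus strand: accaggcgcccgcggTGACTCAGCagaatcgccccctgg
ANKRD11, ARE at chr16:89392619-89392627, plus strand: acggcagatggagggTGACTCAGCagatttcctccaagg
SH3GL1, ARE at chr19:4374765-4374773, plus strand: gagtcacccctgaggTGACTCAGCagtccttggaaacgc
SLC5A10, ARE at chr17:18885425-18885433, plus strand: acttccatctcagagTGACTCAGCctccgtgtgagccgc
SLC39A11, ARE at chr17:70677428-70677436, minus strand: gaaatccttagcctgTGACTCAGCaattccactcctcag
TBC1D16, ARE at chr17:77907791-77907799, minus strand: gcagcgagcaTGACTCAGCgtttacactc

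In 8 of these 9 the core was TGACTCA, with TNFRSF1A as the exception, and in 7 of 9 the base after the GC was A. The base before the T was A in 3 and G in 5, and C in SPTLC1. The score is the p-value that MACS gave to a peak, on a negative log10 scale multiplied by 10, and it ran from 628.57 in TBC1D16 to 1288.67 in HTRA3. HTRA3 encodes a secreted serine protease, and its peak (chr4:8305044-8305946, intron 7 of 8) ranked 6 among all deposited peaks. SPTLC1 encodes a subunit of serine palmitoyltransferase, the first enzyme of sphingolipid synthesis, and its peak scored 1122.3 in intron 3 of 14. The peak of TNFRSF1A, the type 1 receptor for TNF, scored 931.93 in the first intron, 2990 bp from the nearest TSS. The microtubule-binding protein gene MAPT scored 837.9, the chromatin regulator gene ANKRD11 789.94, and SH3GL1, which encodes an endophilin, 729.73. The peak in SLC5A10 (669.19) lay also within FAM83G, since both genes span it. SLC39A11, a zinc transporter gene, scored 663.99.

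Members differed widely in score, and most were far weaker than these 9. The median score was 105.34 (interval 100.03 to 110.5) and the middle 2 quartiles ran from 73.27 to 172.98. Just over the threshold of the peak caller the lowest member had 50.06, and 685 members (52.8%) reached 100. Distal peaks inside genes but without a full ARE, 698 in all, had a median of 74.71 (70.76 to 78.1), whose interval does not meet that of the members. Full-ARE peaks outside protein-coding genes (n = 1448) had 98.61 (94.82 to 102.69) and those within 2 kb of a TSS (n = 733) had 112.84 (103.81 to 118.16), and both of these intervals overlap that of the members. The median member was 520 bp wide, within a range of 236 to 1261 bp.

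**Figure D1:**
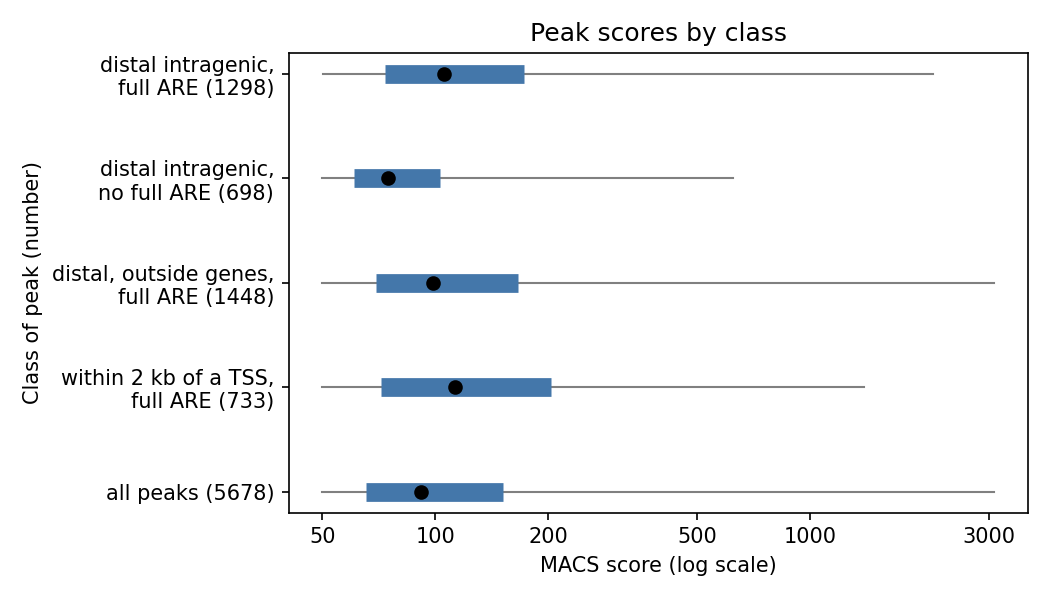
MACS scores (log axis) of the 1298 members and of 4 other classes of peak, with the number of peaks in brackets. Dots are medians, thick bars the middle 2 quartiles and thin lines the full range. The members' dot, at 105.34, lies to the right of that of distal intragenic peaks without a full ARE, at 74.71.

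The full ARE sat close to the middle of the peak. Its median distance from the centre was 30 bp (28 to 32), 952 members (73.3%) had it within 50 bp and 1236 (95.2%) within 100 bp. The farthest was 342 bp from its centre. The rule asked only for an ARE somewhere in the peak, so the position was not fixed by the choice of members.

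**Figure D2:**
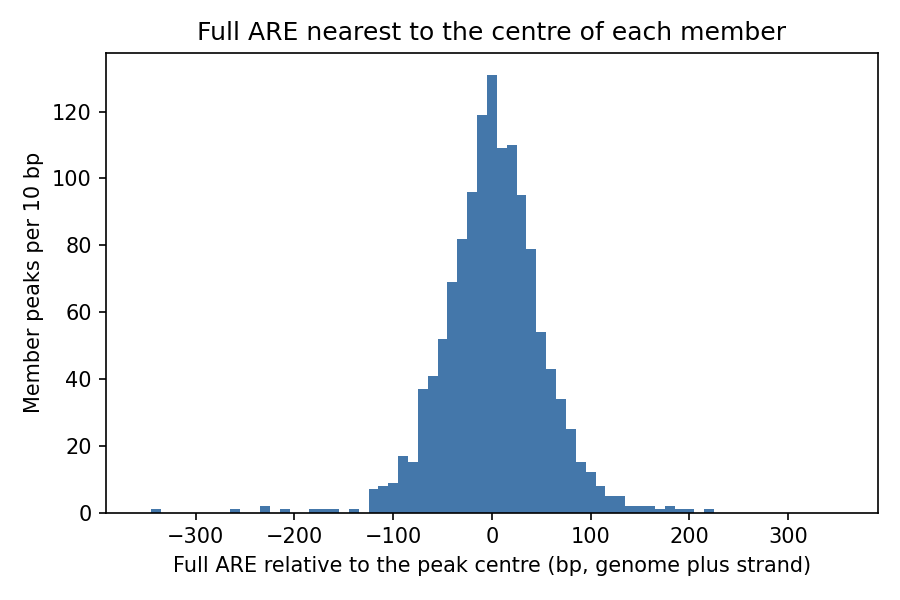
Position of the nearest full ARE relative to the peak centre, in bp along the genome plus strand, as the number of member peaks per 10 bp. The counts gather around 0, and 952 of 1298 members lie within 50 bp of it.

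Nearly all members were intronic, as were nearly all full AREs in the same parts of the genome. The centre lay in an intron in 1226 (94.5%, 93.1 to 95.6%), in an untranslated region in 50, in a coding exon in 11 and in another exon in 11. Of all 18643 full AREs inside protein-coding genes and more than 2 kb from every TSS, 17617 lay in introns. Of these 7.50% (7.12 to 7.90%) lay in a peak, beside 7.51% of the 18643, so the intronic share is not particular to the members. A centre counted as intronic when no exon of a protein-coding gene covered it, whether or not the canonical transcript reached that far. Among 1068 centred in an intron of the canonical transcript, 291 (27.2%, 24.7 to 29.995%) lay in the first intron, against 3457 of 14091 full AREs outside peaks (24.5%, 23.8 to 25.3%). The 2 intervals overlap. The nearest TSS was 2030 to 268121 bp away, with a median of 10134 bp (9361 to 11086). The 3 members just past the 2 kb limit lay in SEC13 (2030 bp, score 122.39), NINJ2 (2031 bp, 173.31) and RIPOR2 (2031 bp, 70.27). The 3 full-ARE peaks just inside it, and so not members, lay in OR8B3 (2000 bp, 95.03), DYRK1A (1997 bp, 132.31) and NCAPD2 (1996 bp, 59.73), with scores of the same range. In 6 classes of distance from a TSS the median score stayed between 99.03 and 108.06, with 103.21 (93.77 to 116.54, n = 345) at 2000 to 5000 bp and 101.29 (62.65 to 129.71, n = 21) beyond 100000 bp.

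To see which AREs inside genes were bound, all full AREs of the genome were located. There were 51467, of which 18643 lay inside a protein-coding gene and more than 2 kb from every TSS. Of these, 1400 (7.51%, 7.14 to 7.90%) lay within a deposited peak, and are called occupied here. Of the 1400, 1393 lay within a member. The share was 6.60% (6.30 to 6.91%) for distal AREs outside protein-coding genes and 10.2% (9.53 to 10.9%) for AREs within 2 kb of a TSS. Within genes the share fell with the distance from a TSS, from 8.81% (7.98 to 9.71%) at 2000 to 5000 bp to 3.59% (2.39 to 5.38%) beyond 100000 bp. Most full AREs inside genes therefore had no peak, and what the occupied ones shared beyond the 9 bases is described next.

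The bases next to the ARE differed between occupied and unoccupied sites. Positions are counted from 1 at the T of TGA, so that position 4 is the open G or C and position 10 is the base after GC. The 1282 members whose ARE reads on a single strand were compared with 16653 unoccupied distal intragenic sites. C stood at position 4 in 79.9% of members (77.6 to 82.0%) and in 61.1% of unoccupied sites (60.3 to 61.8%). The base before the T was A in 64.7% of members (62.1 to 67.3%) against 21.7%, and G in 29.2% against 20.7%. C stood there in 5.38% against 34.6%, and T in only 9 of 1282 members (0.702%, 0.370 to 1.33%) against 23.1%. After the GC, A was found in 77.7% of members (75.3 to 79.9%) against 31.1%. Further out the members also differed from the unoccupied sites, with T at position 12 in 44.5% against 27.2% and T at position 13 in 47.6% against 24.95%.

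Seen from the side of the sites, the neighbouring bases went with large differences in occupancy. AREs preceded by A were occupied in 19.4% (869 of 4487) and those preceded by G in 10.8% (417 of 3858). AREs preceded by C were occupied in 1.34% (78 of 5832) and those preceded by T in 0.415% (16 of 3856). The form with C at position 4 was occupied in 9.65% (1087 of 11260) and the form with G in 4.33% (293 of 6773). AREs followed by A or G were occupied in 16.6% and 11.1%, those followed by T in 3.59% and those followed by C in 1.30%. Counting C at position 4, A before and A after as preferred bases, a choice made after these shares were seen, sites with 0, 1, 2 and 3 of them were occupied in 1.53%, 2.31%, 12.4% and 45.5%. The last is 534 of 1174 sites (42.7 to 48.3%). Of the occupied sites with 0 preferred bases 19 lie under 1 peak, in the gene ERICH1, without which the share was 0.944% (30 of 3178, 0.662 to 1.34%). Sites with all 3 were occupied in 35.9% (33.7 to 38.1%) outside genes and in 52.7% (47.6 to 57.7%) within 2 kb of a TSS.

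**Figure D3:**
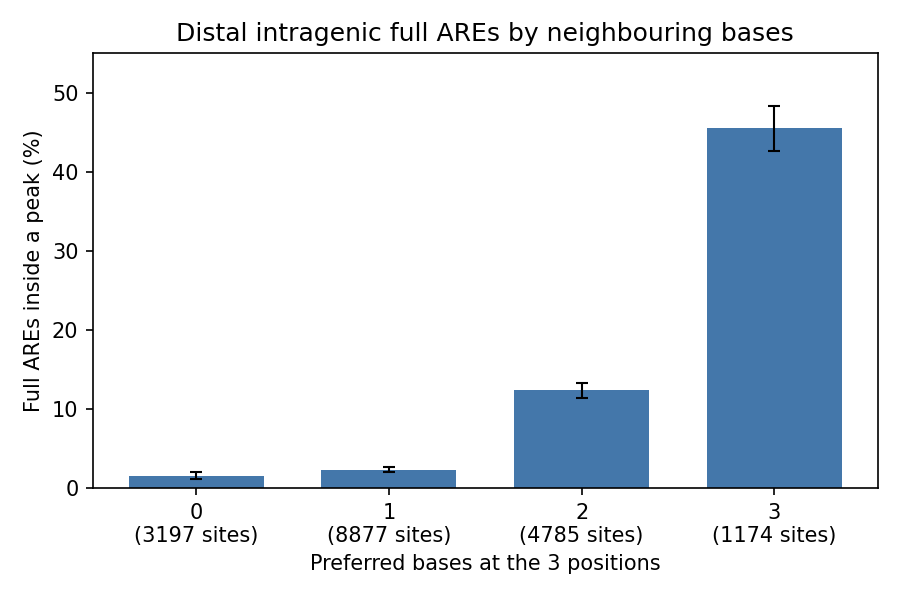
Share of distal intragenic full AREs inside a peak (%), by how many of the 3 preferred bases they carry, with 95% Wilson intervals as error bars and the number of sites under each bar. The bar for 3 preferred bases stands at 45.5% and that for 0 at 1.53%, which is 0.944% without the peak in ERICH1.

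The same bases went with the score among the members. The 517 members with 3 preferred bases had a median score of 126.89 (117 to 138.04), the 560 with 2 had 100.12 (96.07 to 106.98), the 179 with 1 had 86.52 (80.97 to 94.96) and the 26 with 0 had 90.33 (74.46 to 123.37). Between the lowest and the highest quartile of scores, A after the GC rose from 71.3% (66.1 to 75.9%) to 84.7% (80.4 to 88.3%) and C at position 4 from 75% (69.98 to 79.4%) to 86.6% (82.4 to 89.9%). For A before the T the corresponding values were 60.9% (55.5 to 66.1%) and 69.8% (64.5 to 74.5%), whose intervals overlap.

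MAF homodimers bind a longer palindrome of 13 bases, the MAF recognition element (MARE), in which the core is flanked by TGC and GCA. AREs that read on both strands were 16 of 1298 members (1.23%, 0.760 to 1.99%), and 5 of these held the complete MARE. Such palindromic AREs were occupied in 3.28% (20 of 610, 2.13 to 5.01%), against 7.65% (1380 of 18033, 7.27 to 8.05%) of those reading on a single strand. For the complete MARE alone the share was 6.76% (5 of 74, 2.92 to 14.9%), an interval that overlaps both. A palindromic ARE always has C before the T, and single-strand AREs with C there were occupied less, in 1.34% (1.07 to 1.67%), an interval that does not meet that of the palindromic ones. The 3 highest-scoring members with a MARE are shown with the ARE in capitals, so that the opposite GC stands just before them in lower case.
SMARCA4, ARE at chr19:11175613-11175621, plus strand: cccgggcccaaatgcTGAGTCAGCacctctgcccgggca
PRKAG2, ARE at chr7:151385149-151385157, plus strand: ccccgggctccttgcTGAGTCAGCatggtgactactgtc
ARMH4, ARE at chr14:58637995-58638003, plus strand: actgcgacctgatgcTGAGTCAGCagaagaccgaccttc

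SMARCA4, which encodes the BRG1 ATPase of SWI/SNF remodelling complexes, had a score of 408.43 at chr19:11175245-11175970. PRKAG2, a regulatory subunit of AMP-activated protein kinase, had 373.92, and ARMH4 had 282.6. All 3 were intronic, although those in SMARCA4 and ARMH4 lay in no intron of the canonical transcript. The scores of all 3 lay above the third quartile of the members. The 16 palindromic members as a group had a median of 79.07 (62.17 to 184.09).

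More than 1 full ARE in a peak was uncommon and went with a high score. Of the members, 1235 held 1 full ARE, with a median score of 102.82 (98.47 to 107.68), and 63 (4.85%, 3.81 to 6.16%) held 2 or more, with a median of 228.16 (181.25 to 260.02). In the highest quartile of scores 12.3% of members (9.17 to 16.3%) held 2 or more, against 2.46% (1.25 to 4.78%) in the lowest. The AREs themselves were occupied in 6.84% (6.48 to 7.22%) where no other full ARE lay within 250 bp, in 33.6% (112 of 333, 28.8 to 38.9%) where 1 did, and in 52.6% (41 of 78, 41.6 to 63.3%) where 2 or more did. AREs of 1 peak share its call, so these counts are not independent.

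Arrays of regularly spaced AREs lay under the members in ERICH1 and HTRA3. The peak in ERICH1 (score 222.98) held 20 full AREs, more than any other member, and the peak in HTRA3 held 5. In HTRA3 4 of 4 distances between neighbours were 26 bp, and in ERICH1 9 of 19 were 39 bp. In both arrays the AREs all read on the same strand. The central 300 bases of the HTRA3 member show the repeated unit, with all 5 full AREs in capitals.
HTRA3, chr4:8305345-8305644, plus strand: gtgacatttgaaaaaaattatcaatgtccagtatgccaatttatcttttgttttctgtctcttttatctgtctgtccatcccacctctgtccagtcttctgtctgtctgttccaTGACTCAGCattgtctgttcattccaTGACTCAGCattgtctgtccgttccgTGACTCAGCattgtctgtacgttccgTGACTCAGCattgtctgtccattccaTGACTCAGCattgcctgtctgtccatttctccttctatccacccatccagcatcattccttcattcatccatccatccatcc

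Such tandem units can differ in copy number between a cell line and the reference genome, and the part of this in the scores of HTRA3 and ERICH1 was not tested. The 93 bases around the ARE of HTRA3, the length of a read, occur once among the full AREs of the genome. Over all members, 6 had an ARE whose surrounding 93 bases were repeated there.

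Many full AREs inside genes lie in sequences that resemble each other, as copies of interspersed repeats do. The 18643 sites were therefore grouped by the 30 bases around the ARE, 15 on each side, allowing 12 mismatches to the sequence that started a group, without any annotation of repeats and after the data had been seen. There were 12 groups of at least 40 sites, numbered by size. They took in 3635 sites (19.5%) and 270 members (20.8%). The groups differed from each other far more than this near equality shows.
FAM135A, group 2, chr6:71220484-71220522, minus strand: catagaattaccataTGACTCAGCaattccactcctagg
PDE4D, group 11, chr5:59009108-59009146, plus strand: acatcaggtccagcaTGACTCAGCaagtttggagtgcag

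These are the sequences that started groups 2 and 11, both in introns, with the ARE in capitals. Group 1 resembles by its letters the Alu elements, which descend from 7SL RNA, although no repeat annotation was used here. It held 2154 sites, more than any other, of which 7 were occupied (0.325%, 0.158 to 0.669%), and 5 members. Group 2, started by a site in FAM135A, held 740 sites, of which 172 were occupied (23.2%, 20.3 to 26.4%), and 170 members (13.1% of all). Group 3 was occupied in 22.9% (36 of 157, 17.05 to 30.1%), and group 11, started in PDE4D, in 58.5% (24 of 41, 43.4 to 72.2%). None of the 108 sites of group 5 was occupied, which allows a share of up to 2.78% taken as 3 sites of the total (upper Wilson limit 3.43%). The 15008 sites in no group were occupied in 7.36% (6.96 to 7.79%).

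**Figure D4:**
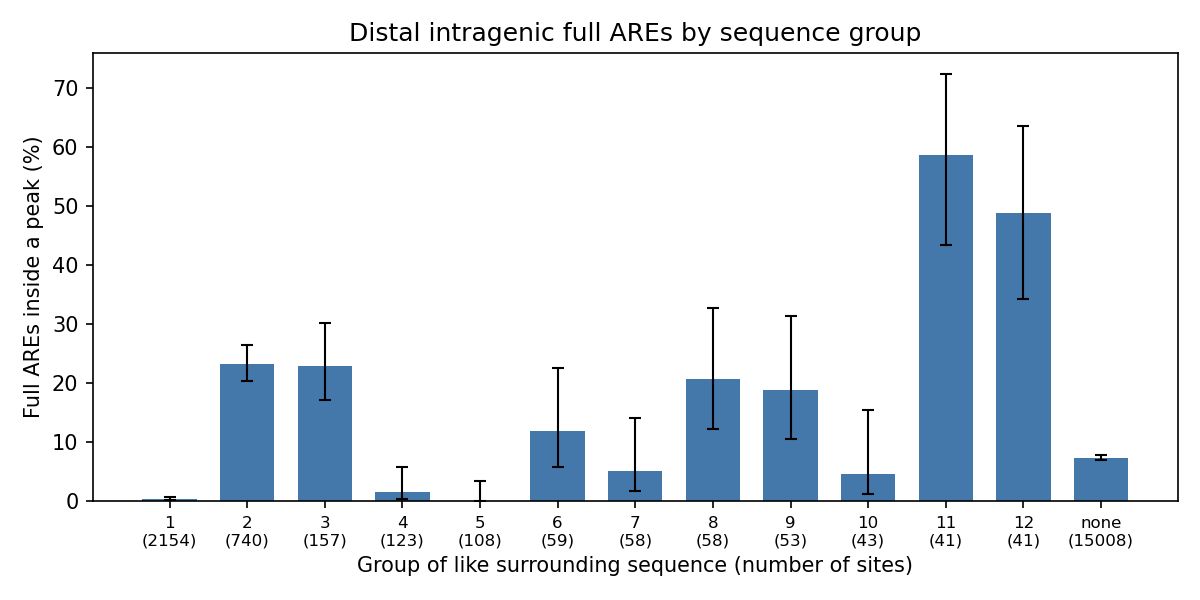
Share of distal intragenic full AREs inside a peak (%), for the 12 groups of like surrounding sequence and for sites in no group (none), with 95% Wilson intervals as error bars and the number of sites under each bar. Group 1 stands at 0.325%, group 2 at 23.2%, group 11 at 58.5% and sites in no group at 7.36%. The occupied sites of group 12 all lie in the array in ERICH1, under 1 peak.

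The groups also differed in the bases next to the ARE. In group 1, 5.11% of sites had A before the T and 0.836% had A after the GC, against 40.1% and 81.8% in group 2 and 89.8% and 98.7% in group 3. At positions 12 and 13 the sequence that started group 2 has T and that of group 1 has C. Group 2 held 13.1% of members and group 1 12.5% of unoccupied sites. The part of the groups in the difference between members and unoccupied sites at these positions was not tested. Of the 7 occupied sites of group 1, 2 had A before the T, 1 had G and 4 had C. Those with A lie in the 2 members of the group with the highest scores, in FAM83B (316.5) and DOCK3 (124.37). The ARE of the FAM83B peak lies 177 bp from the peak centre, farther than in most members, and that of DOCK3 36 bp.
FAM83B, group 1, chr6:54749163-54749201, minus strand: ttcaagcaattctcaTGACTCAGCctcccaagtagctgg
DOCK3, group 1, chr3:51381934-51381972, minus strand: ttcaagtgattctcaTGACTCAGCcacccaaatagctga

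Outside protein-coding genes, distal sites of group 2 were occupied in 12.8% (162 of 1266, 11.1 to 14.7%), a share below that within genes. The 170 members in group 2 had a median score of 117.30 (106.58 to 131.29), and the 1028 members in no group had 104.61 (99.24 to 110.66). The highest scores in group 2 were those of SLC39A11 (663.99), FAM120A (497.94) and SH3PXD2A (416.76). In group 3 the leading members lay in ULK4 (311.39), PRH1 (295.42) and ALCAM (291.57), and in group 11 in IHO1 (573.81), BLTP3A (334.2) and GRM3 (271.75).

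Group 2 is large enough to compare single bases among sites with like surroundings, although up to 12 of the 30 flanking bases may differ from the start of the group. Within it, sites with A before the T were occupied in 52.5% (156 of 297, 46.9 to 58.1%) and those with G in 29.4% (15 of 51, 18.7 to 43.0%). Of the 371 sites with T before, none was occupied, which allows a share of up to 0.809% (upper Wilson limit 1.02%). With at most 9 mismatches the shares were 52.7% (45.8 to 59.5%) for A, 26.9% (13.7 to 46.1%) for G and 0 of 196 for T, with an upper Wilson limit of 1.92%. Flanks within the same limit of mismatches occur far more often with 1 base of the core changed: T5C, in which the T at position 5 of the full ARE is C, was found 11214 times inside genes and away from TSSs. Of these sites 1 lay in a peak (0.00892%, 0.00157 to 0.0505%). Among T5C sites that kept all 3 preferred bases it was 1 of 1275 (0.0784%, 0.0138 to 0.443%), against 150 of 260 (57.7%, 51.6 to 63.5%) of full AREs of group 2 with all 3. The examples show full AREs of group 2 with A and with T before, with the ARE in capitals.
FAM135A, A before, occupied, chr6:71220484-71220522, minus strand: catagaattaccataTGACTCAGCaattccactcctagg
SHTN1, A before, occupied, chr10:118813228-118813266, plus strand: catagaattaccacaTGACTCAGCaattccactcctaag
EML4, T before, not occupied, chr2:42554498-42554536, minus strand: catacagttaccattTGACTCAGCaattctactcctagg
NAA16, T before, not occupied, chr13:41919338-41919376, minus strand: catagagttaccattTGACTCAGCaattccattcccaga

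Reads from copies that are identical over their length cannot be placed. Limiting the comparison to T5C sites whose 93 bases occur once among the T5C sites counted above left 8330 sites, of which 1 lay in a peak (0.0120%, 0.00212 to 0.0680%). Copies outside genes or near a TSS were not counted, so these sites are not shown to be uniquely placed. For group 2 itself 718 of 740 sites had unique 93 bases among all full AREs of the genome, a wider count, and 171 of them were occupied (23.8%, 20.8 to 27.1%). In group 1 the corresponding counts were 2128 sites and 7 occupied (0.329%, 0.159 to 0.677%). Copies that differ by few bases were not tested in this way.

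Over all distal intragenic sites, and not only in group 2, a change at 1 of the 3 positions 5 to 7 went with low occupancy. Of 125041 such sites 353 (0.282%, 0.254 to 0.313%) lay in a peak, and 238 (0.190%) in a peak without a full ARE. The change with the highest share in peaks was A7G, with 35 of 1995 sites (1.75%, 1.26 to 2.43%), followed by C6A with 69 of 9142 (0.755%, 0.597 to 0.954%) and T5A with 111 of 24299 (0.457%, 0.379 to 0.550%). Even A7G stayed below the 7.51% of the full ARE, and the intervals do not meet.

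In all, 14 short motifs of transcription factors were searched on both strands up to 100 bases on each side of each distal intragenic ARE. A further AP-1 core, TGACTCA or TGAGTCA, outside that of the ARE went with the largest difference: 25.9% of the 847 sites with it were occupied (23.02 to 28.9%), against 6.64% of those without (6.28 to 7.01%). This core overlaps with the full ARE itself, since any further full ARE contains it, and it stood near 3.64% of unoccupied sites. AREs under 1 peak, as in the arrays, share its call here too, so these counts are not independent. The TEAD motif GGAATG stood near 2261 sites, occupied in 10.6% (9.37 to 11.9%) against 7.09% (6.70 to 7.49%) without, and the GATA motif AGATAA near 2023, occupied in 9.39% (8.20 to 10.7%) against 7.28% (6.90 to 7.69%). GGAATG was present around 16.4% of all peak centres, whatever their ARE, and AGATAA around 10.3%. For RUNX (TGTGGT) the values were 6.50% (5.62 to 7.50%) and 7.68% (7.27 to 8.10%), with overlapping intervals. For FOX (TGTTTAC) they were 10.6% (8.23 to 13.7%) and 7.42% (7.05 to 7.81%), intervals that do not meet, and TGTTTAC was present around 3.36% of all peak centres. The 9 others were ETS (CCGGAA), TCF7L2 (ATCAAAG), CDX (TTTATGG), HNF1 (GTTAAT), KLF or SP (GGGCGG), NFY (CCAAT), the E-box (CACGTG), p53 (CATGTC) and CEBP (TTGCGCAA), and for these the intervals with and without the motif overlapped. The GC content of the same window had a median of 44.3% at occupied and 45.8% at unoccupied sites. Occupancy did not change in a single direction with GC content. It was 9.11% (8.15 to 10.2%) at 35 to 40% GC, 5.30% (4.62 to 6.08%) at 50 to 55% and 10.8% (8.82 to 13.1%) at 60% or more. A match of this kind is a description of the letters and not evidence of a bound factor.

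The ARE has a direction, and within genes it can be read on the strand of the gene or on the opposite one. Members lay on the strand of their host gene in 532 of 1245 cases (42.7%, 40.0 to 45.5%). AREs on the same strand as the gene were occupied in 6.58% (584 of 8875, 6.08 to 7.12%) and those on the opposite strand in 8.59% (758 of 8825, 8.02 to 9.19%). The 2 kinds of site were almost equal in number but not in their neighbouring bases, as all 3 preferred bases were found at 488 sites on the same strand and at 667 on the opposite one. Among these, occupancy was 39.5% (35.3 to 43.95%) on the same strand and 49.0% (45.2 to 52.8%) on the opposite one. With 2 preferred bases it was 11.6% (10.3 to 12.9%) and 12.8% (11.6 to 14.2%), and the intervals overlap. With 1 it was 2.18% (1.79 to 2.65%) and 2.42% (1.998 to 2.92%). With 0 the order was the other way, 2.03% (1.46 to 2.80%) on the same strand and 0.925% (0.541 to 1.58%) on the opposite one, and without the peak in ERICH1, whose 20 AREs all lie on the strand of the gene, the former was 0.936% (0.577 to 1.52%). In sites belonging to none of the 12 groups the shares were 6.51% (5.96 to 7.10%) and 8.45% (7.82 to 9.13%).

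The members lay in 1222 of 20136 protein-coding genes, or 6.07%. A peak within 2 kb of the gene's own TSS, with or without an ARE, was found for 1215 genes, or 6.03%. Both held for 113 genes, which are 9.25% (7.75 to 11%) of the host genes and 9.30% (7.79 to 11.1%) of those with a peak at the TSS. Most host genes, 1065, held 1 member, 137 held 2, 16 held 3 and 4 held more. Because several genes can span the same position, 86 members lay in 2 or more host genes.

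Host genes were long. Their median length was 136630 bp (128326 to 147019), against 27217 bp (26481 to 27900) for all protein-coding genes. The rule favours long genes, because a short gene has little sequence more than 2 kb from every TSS. Full AREs open to the rule were not counted by gene length, so a preference for long genes was not tested. Of genes under 10000 bp 0.152% hosted a member (8 of 5249), of those from 30000 to 100000 bp 6.10% (357 of 5849), and of those over 300000 bp 34.3% (284 of 827). The longest host was CNTNAP2, a neurexin family gene of 2304997 bp with 1 member (score 60.93), and the shortest was SLC34A3, a renal phosphate transporter gene of 5799 bp (73.58). Among genes over 300000 bp, 28 of 59 with a peak at their TSS hosted a member (47.5%, 35.3 to 59.96%), and 256 of 768 without (33.3%, 30.1 to 36.7%). The intervals overlap in this and in every other class of length.

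**Figure D5:**
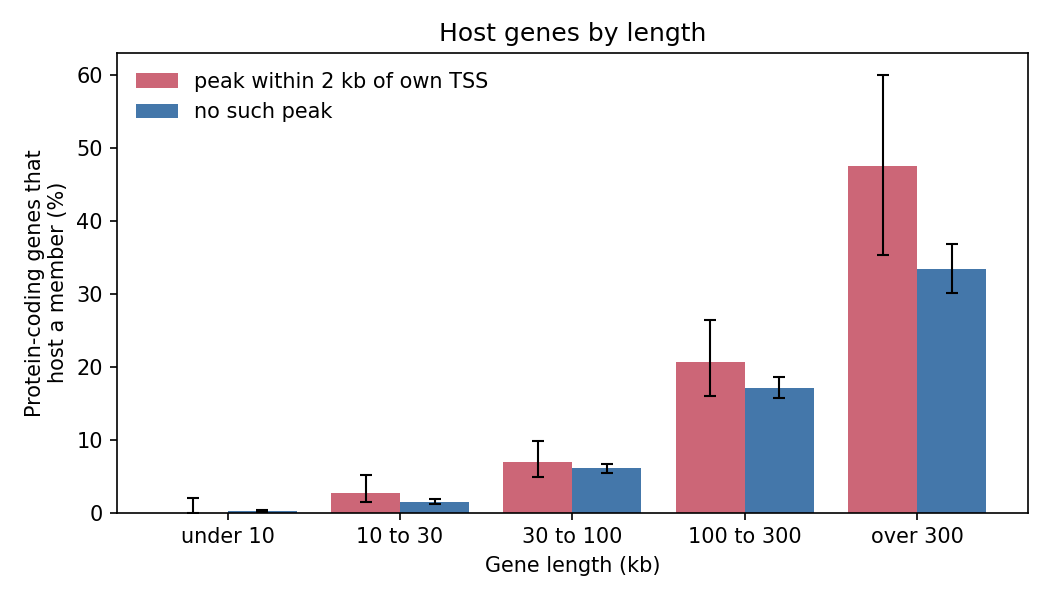
Share of protein-coding genes that host a member (%), by gene length in kb, for genes with a peak within 2 kb of their own TSS and genes without, with 95% Wilson intervals as error bars. Both kinds rise with length, to 47.5% and 33.3% in genes over 300 kb, and their error bars overlap in each class. Longer genes hold more sequence that the rule admits, and the bars are not adjusted for this.

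The 5 genes with the most members were SHTN1, NT5C2, FAM83B, PLCB1 and TRIB3. SHTN1 encodes shootin, a protein of neuronal polarity, and its 5 members scored 203.24, 112.7, 97.87, 91.75 and 73.96. Those scoring 203.24 and 112.7 lay in no intron of its canonical transcript. TRIB3, named among the 16 genes with 3 members for its score, is a pseudokinase gene known as a target of the integrated stress response. Its annotated span is 34725 bp, and its members scored 624.86, 158.13 and 83.54. None of these 3 members lay in an intron of its canonical transcript. The AREs of SHTN1 and TRIB3 are shown because they let several sites of 1 gene be compared.
SHTN1, ARE at chr10:118665181-118665189, plus strand: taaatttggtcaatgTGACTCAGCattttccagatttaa
SHTN1, ARE at chr10:118706830-118706838, minus strand: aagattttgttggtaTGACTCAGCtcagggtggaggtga
SHTN1, ARE at chr10:118729762-118729770, plus strand: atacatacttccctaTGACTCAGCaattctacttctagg
SHTN1, ARE at chr10:118813243-118813251, plus strand: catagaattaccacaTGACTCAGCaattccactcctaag
SHTN1, ARE at chr10:118848057-118848065, minus strand: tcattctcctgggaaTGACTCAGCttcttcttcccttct
TRIB3, ARE at chr20:345751-345759, plus strand: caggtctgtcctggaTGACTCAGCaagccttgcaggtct
TRIB3, ARE at chr20:351754-351762, plus strand: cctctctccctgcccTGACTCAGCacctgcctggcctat
TRIB3, ARE at chr20:352808-352816, plus strand: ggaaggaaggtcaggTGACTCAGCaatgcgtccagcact

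All 8 AREs had C at position 4. In TRIB3 the order of the scores was A, G and C before the T, with A after the GC in each, and the peak scoring 83.54 held 2 full AREs. In SHTN1 the scores did not follow these bases. There the site with G before scored 97.87, above sites with A before at 91.75 and 73.96. Of the SHTN1 sites, the AREs of the peaks scoring 203.24 and 91.75 belong to group 2. NT5C2, a cytosolic nucleotidase gene, held 4 members with scores of 478.87, 159.8, 82.69 and 77.74, none in an intron of its canonical transcript. Of them 2, those scoring 82.69 and 77.74, belong to group 2. The highest and the lowest of the 4 scores both went with all 3 preferred bases. FAM83B held 4 with 316.5, 180.59, 115.54 and 57.28, and PLCB1, a phospholipase C gene of 891110 bp, 4 with 185.67, 171.03, 170.96 and 143.91. Within PLCB1 the scores stayed close together, while within TRIB3 and NT5C2 they differed several-fold.

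The host genes were then compared with 8 lists of genes related to NRF1, to stress and to this cell type, 400 genes in all. Together they held 37 member peaks in 33 genes. The list of the proteasome, whose genes are the classical targets of NRF1, had 2 hosts of 50 genes (4.00%, 1.10 to 13.5%). This interval includes the 6.07% of all protein-coding genes, a share not adjusted for length here or for the other lists. The list had a median length of 17670.5 bp, and of all genes of 10000 to 30000 bp 1.51% were hosts. Of the 50 genes 38 (76.0%) had a peak within 2 kb of their own TSS, beside 6.03% of all. The hosts were PSMD1, a subunit of the regulatory particle (score 96.05, intron 16 of 24), and PSMA1, an alpha subunit of the core particle (54.47), and both had a peak at the TSS as well. The member in PSMA1 lay in no intron of its canonical transcript, and its ARE belongs to group 2. The 38 genes of ubiquitin and ER-associated degradation (ERAD) held 2 hosts (5.26%, 1.46 to 17.3%), FAF2 (99.03) and FAF1 (96.79), which encode adaptors of the p97 ATPase. This list had a median length of 48523.5 bp, and of all genes of 30000 to 100000 bp 6.10% were hosts. Of its genes 12 (31.6%) had a peak at the TSS, beside 6.03% of all.

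The antioxidant response list had 6 hosts of 61 annotated genes (9.84%, 4.59 to 19.8%), again an interval that includes 6.07%. Its median length was 29557 bp, beside hosts of 1.51% among all genes of 10000 to 30000 bp and 6.10% among those of 30000 to 100000 bp. Of the 61 genes 31 (50.8%) had a peak at their TSS, against 6.03% of all protein-coding genes. EPHX1, the microsomal epoxide hydrolase, had the highest score of the 6 hosts (434.35, chr1:226005255-226005871, first intron). SLC48A1, a heme transporter gene, scored 320.89 with 2 full AREs, 2437 bp from the nearest TSS. AKR1C3, an aldo-keto reductase gene whose annotated span of 72333 bp includes long alternative transcripts, scored 253.18, and ABCC1, an export pump for glutathione conjugates, 227.02. The other 2 hosts were MGST1 (113.81) and AKR1C2 (67.52).

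Of 60 autophagy and lysosome genes, 4 were hosts (6.67%, 2.62 to 15.9%), a share close to the 6.07% of all protein-coding genes, and 13 (21.7%) had a peak at the TSS, beside 6.03%. The list had a median length of 36605.5 bp, and of all genes of 30000 to 100000 bp 6.10% were hosts. UVRAG, a component of a PI3-kinase complex of autophagy, had a member of 306.31 in intron 12 of 14, 55202 bp from the nearest TSS. VMP1, needed for autophagosome formation, had 2 (153.62 and 126.85). NPC1, a lysosomal cholesterol transporter gene, scored 108.59, and ATG7, the activating enzyme of the ATG8 conjugation system, 53.55, close to the lowest score of the list of peaks.

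Among 34 cap'n'collar, MAF and AP-1 factor genes 1 was a host (2.94%, 0.521 to 14.9%), an interval that includes the 6.07% of all protein-coding genes. The host was BACH2, a repressor of the same family as NRF1 that binds the same element. Its 2 members scored 166.98 and 87.58 and lay in introns 4 and 1 of 8, and the first belongs to group 11. The list had a median length of 13320.5 bp, and of all genes of 10000 to 30000 bp 1.51% were hosts. Of its 34 genes 9 (26.5%) had a peak at the TSS, beside 6.03% of all. No gene of the 34 heat shock and chaperone genes was a host, which allows a share of up to 8.82% (upper Wilson limit 10.2%). Both limits lie above the 6.07% of all protein-coding genes and the 1.51% of all genes of 10000 to 30000 bp. This list had a median length of 20596 bp, and 7 of its 34 genes (20.6%) had a peak at the TSS, beside 6.03% of all.

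The list of the actin cytoskeleton and adhesion had the largest share of hosts, 13 of 68 (19.1%, 11.5 to 30.01%), beside 6.07% of all protein-coding genes. Its genes are long, with a median of 97416.5 bp against 27217 bp, and of all genes of 30000 to 100000 bp and of 100000 to 300000 bp 6.10% and 17.3% were hosts. The highest scores were those of ACTN4, an actin crosslinker (241.86, ARE in group 2), LAMA3, a laminin chain of epithelial basement membranes (237.59, 3 full AREs), CLDN4, a tight junction claudin (172.04), and TLN2, a talin (137.5). The member in CLDN4 lay in no intron of its canonical transcript. The 9 other hosts had top scores between 51.02 for PALLD and 133.74 for LPP. A peak at the TSS was found for 13 of the 68 genes (19.1%), beside 6.03% of all. Of 54 genes of growth factor, TGF-beta and WNT signalling 5 were hosts (9.26%, 4.02 to 19.9%), where the interval again includes 6.07%. Among them were the MAP kinase phosphatase gene DUSP4 (287.79), TNIK, a kinase of the WNT pathway (224.11 and 105.13), the receptor tyrosine kinase gene MET (99.74) and MAPK8 (64.49). Of the 37 member peaks in list genes, 7 (18.9%) had an ARE of group 2, beside 13.1% of all members. A peak inside a gene does not show that NRF1 regulates that gene, and expression was not measured in these data.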

How the data were processed

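The study measured NRF1 binding by ChIP-seq in 1 library of HCT116 cells. The authors sequenced single-end reads of 93 cycles, mapped them to hg19 with Bowtie2 2.2.6 and called peaks with MACS 1.4.2. The deposited score of each peak is its p-value on a negative log10 scale, multiplied by 10. Settings, duplicate removal and the control used are not given in the sources used here, and the depth is unknown.

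Peaks on chromosomes 1 to 22, X and Y were used, and 5 on other contigs were left out. Gene models were GENCODE v44lift37 (220784 TSSs, 20136 protein-coding genes) on the same build, and coordinates are 1-based. TGACTCAGC and TGAGTCAGC were searched on both strands, and a site counted as occupied when it lay wholly within a peak. A gene was a host when it contained the centre of a member. Shares carry 95% Wilson intervals and medians order-statistic intervals, which cover counting error only. Where intervals are said to overlap, this does not show that the values are equal. For a count of 0 the share that 3 counts of the total would give is printed beside the upper Wilson limit. No test was made, because there is 1 library. Python 3.11.15, numpy 2.4.6, scipy 1.17.1 and pysam 0.24.0 were used, and the search, distances and grouping were tested on simulated data.

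The members and the 8 gene lists were chosen with earlier results of these data known. The genes named are the hosts of the 10 highest scores, the 5 with most members, the 3 members with most AREs, up to 4 hosts per list, the 3 peaks on each side of the 2 kb limit, the 3 highest with a MARE, and the longest and shortest host. Some of these genes and sequences are not reported here. Other hosts of the lists and the examples of sequence groups were named after their values were seen. The groups, motifs and changed cores were also chosen then. TRIM16L, 1 of the 400 list genes, had no match in the annotation. Alternatives were a score of at least 100, other distances to a TSS, other gene and TSS sets, the central 200 bp, the C form of the ARE and merged peaks.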

Additional observations from a re-analysis of the deposited data

How the results depend on the processing

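With 1 library there was no replicate to leave out. No paired analysis was possible because the result comes from 1 ChIP library and from no test. Of 104 recomputed values, 84 stayed within the interval of the value reported, or within 1.5 times the count reported. A minimum score of 100 left 685 members in 679 host genes, with a median score of 167.54, 95.8% in introns, 7.30% with 2 or more full AREs, C at position 4 in 84.6%, A before in 67.4%, A after in 83.1%, and 4.14% of distal intragenic full AREs occupied. With it, 14.1% of group 2 and 28.9% of the sites with 3 preferred bases, both added after the data were seen, were occupied. A limit of 5 kb and hosts of any gene type each gave 95.8% in introns. The central 200 bp gave 3.10% with 2 or more AREs and 6.83% occupied. The C form alone gave a median of 111.56, 3.43% with 2 or more and 9.33% occupied. For sites with 0 preferred bases, 0.944% were occupied without the peak in ERICH1 and 0.967% without the 12 groups, settings also added then. Allowing 9 mismatches gave 26.2% for group 2 and 0.356% for group 1. The distance from the edge of a peak has no meaning for sites outside peaks and was not applied to occupancy. The depth is unknown, so that an ARE without a peak is not shown to be unbound.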
